A study of Oryza sativa with 12 samples.

Results

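The genes described here were those whose transcripts were low in every library of *OsbZIP62V* rice, in which the bZIP transcription factor OsbZIP62 is overexpressed as a fusion with the activation module VP64. They were chosen by their values: a gene was taken when it reached 5 CPM (counts of a gene scaled to a library total of 1000000) or more in each of the 3 wild-type Kitaake (WT) libraries and its lowest WT value was 2 times its highest *OsbZIP62V* value or more. This left 135 of 35679 listed genes, or 1.21% of the 11162 genes at 5 CPM or more in every WT library. The same rule turned round gave 191 genes that were high in every *OsbZIP62V* library.

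The series held 12 libraries, 3 for each of 4 groups: WT of the cultivar Kitaake, *OsbZIP62V* plants in Kitaake (1 line, OE1), wild-type Nipponbare, and the CRISPR mutant *osbzip62* (1 line, C54), which the study compared with Nipponbare. The study's methods call the 3 libraries of a group biological replicates, each from 30 plants. All plants were labelled as leaf material at the 4-leaf stage, grown in liquid culture under normal conditions. As each genetic change was read in a single line, the line and the change cannot be told apart, and no source used here names the promoter that drives the fusion.

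bZIP factors are DNA-binding proteins, many of which act in abscisic acid and stress signalling in plants by binding promoter elements with an ACGT core. WRKY factors, JAZ (TIFY) proteins, heat shock chaperones, kinases that answer to calcium sensors, and enzymes that remove peroxide belong to the same stress network, and examples of each were among the 135 genes. Heat shock proteins keep other proteins folded, and JAZ proteins hold back jasmonate-responsive genes until jasmonate triggers their degradation.

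The libraries held 9224755 (WT replicate 1) to 19759728 counts (WT replicate 3), with 22922 to 26139 genes counted at least once. OsbZIP62 itself stood at 992 to 1152 CPM in *OsbZIP62V* and at 1.03 CPM or less in every other library. It was also near 0 in Nipponbare, so the mutant's transcript level checks nothing. The light-harvesting gene Lhcb LOC_Os01g41710, a leaf marker, stood at 20.7, 15.4 and 14.1 CPM in WT, at 1467, 45.6 and 2823 CPM in *OsbZIP62V*, at 4544, 7254 and 290 CPM in Nipponbare and at 691, 2291 and 359 CPM in *osbzip62*. The other antenna gene that could be placed, LOC_Os01g52240, ran from 5.16 to 8.48 CPM in WT and from 18.5 to 5482 CPM elsewhere. The WT libraries thus had the lowest levels of these leaf markers. *OsbZIP62V* replicate 2, at 45.6 and 18.5 CPM, lay nearer to WT than to the other *OsbZIP62V* replicates, which stood at 520 and 689 CPM for LOC_Os01g52240. Nipponbare also varied widely, from 290 to 7254 CPM for LOC_Os01g41710. The choice of every member rests on the WT libraries. Their leaf label was not borne out by these antenna genes, and whether it holds was not tested. A locus could be placed only if it was on the study's lists of changed genes, so markers that did not change could not be seen. The other 4 leaf loci and the root locus fixed for this check could not be placed. The part of these marker differences in the levels below was not tested.

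Only 23 of the 135 genes could be given a locus and an annotation, through the folds printed in the study's lists of changed genes. The other 112 are known only by their identifiers. Of the 23, 14 were on the study's list of genes changed in *osbzip62*, so that their difference between *osbzip62* and Nipponbare is not independent evidence. Just 8 of the 23 were at or below 0.5 times the lowest WT value in every Nipponbare and *osbzip62* library, against 101 of all 135. The genes described singly below are thus not typical of the members. The 23 comprised 3 transcription factors (WRKY24, OsMYB2 and a NAM-like protein), heat shock proteins, 2 proteins of calcium signalling (CIPK31 and an IQ calmodulin-binding protein), the JAZ protein TIFY 10a, 2 metal transport proteins, redox enzymes and proteins of secretion, proteolysis and RNA binding.

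As the rule required, all 135 genes were low in all 3 *OsbZIP62V* libraries. In bulk RNA, fewer cells of a type and less RNA per cell cannot be told apart. The median over the members of the log2 ratio to the WT mean, with 0.5 CPM added to both, was -2.13, -1.90 and -1.99 in the *OsbZIP62V* libraries. The ratio of mean WT to mean *OsbZIP62V* CPM ran from 2.14 to 26.74 with a median of 4.31, and 13 members had a ratio of 10 or more. All 135 were called lower in the edgeR comparison that covers the same libraries, against 2.06% of the 19864 genes tested (and 3.87% called higher), which only restates the rule.

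At the limit of the rule, the 3 members just inside were OS05G0197300 (lowest WT 6.29 and highest *OsbZIP62V* 3.13 CPM), the NAM-like LOC_Os01g23710 (26.0 and 12.9 CPM) and the heavy metal domain gene LOC_Os04g39350 (99.8 and 49.7 CPM). The 3 genes just outside were OS02G0181300 (180 and 90.2 CPM), OS02G0584700 (6.48 and 3.24 CPM) and the RING/FYVE/PHD zinc finger gene LOC_Os05g01940 (47.2 and 23.6 CPM). The median member had a lowest WT value 2.53 times its highest *OsbZIP62V* value. The limit cuts through a continuous range, and 4 members exceeded a 10-fold gap.

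In the WT libraries the members spanned a wide range, from 6.25 to 1338 CPM (mean of 3) with a median of 44.1 CPM. Per transcript length the mean WT level ran from 1.46 to 580 RPKM with a median of 26.6 RPKM. The highest by either measure was OS07G0559700, which has no annotation here and stood at 1123, 1660 and 1230 CPM in WT. Its levels were 491, 410 and 306 CPM in *OsbZIP62V*, 212, 240 and 270 CPM in Nipponbare and 371, 357 and 460 CPM in *osbzip62*. The members were not equally high in the 3 WT libraries: WT replicate 2 held the highest value for 94 of 135, replicate 1 for 27 and replicate 3 for 14. The median coefficient of variation over 3 replicates was 20.6% in WT, 24.8% in *OsbZIP62V*, 38.6% in Nipponbare and 22.2% in *osbzip62*.

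In Nipponbare, the wild type of the other cultivar, the same genes were low as well. The median log2 ratio to the WT mean was -2.43, -2.76 and -3.23 in the 3 Nipponbare libraries and -2.31, -2.39 and -2.33 in the 3 *osbzip62* libraries, while the median of the other 11027 genes at 5 CPM or more in WT lay between -0.28 and 0.15 in all 12 libraries. Together the members took 1.62%, 1.90% and 1.56% of all counts in WT. They took 0.386% to 0.484% in *OsbZIP62V*, 0.339% to 0.405% in Nipponbare and 0.418% to 0.5% in *osbzip62*. The 3 groups other than WT thus lay close together, and no library of any of them came near WT in the summed level.

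**Figure D1:**
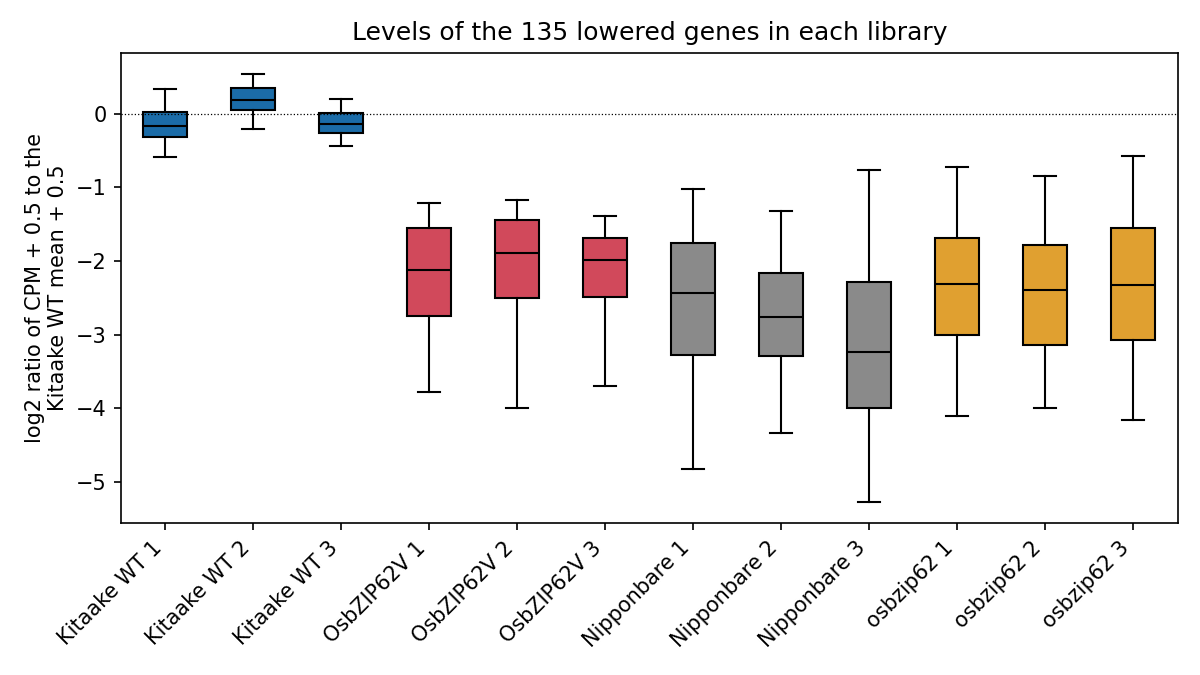
Log2 ratio of CPM + 0.5 to the mean of the 3 Kitaake WT libraries + 0.5 for the 135 lowered genes in each of the 12 libraries; boxes span the quartiles with the median as a line, and whiskers the 5th to 95th percentile. The medians lie between -0.16 and 0.18 in WT, between -2.13 and -1.90 in *OsbZIP62V*, between -3.23 and -2.43 in Nipponbare and between -2.39 and -2.31 in *osbzip62*.

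The comparisons of *OsbZIP62V* and of Nipponbare with WT share the WT libraries, which the rule used and asked to be high, so what follows for Nipponbare and *osbzip62* against WT is a description with no test. Every Nipponbare library was at or below 0.5 times the lowest WT library for 117 of the 135 members, against 5.01% of the 11162 genes at 5 CPM or more in WT. Every *osbzip62* library was so for 110 members, against 3.70% of those genes. Both held for 101 members, against 2.63%. With a gap of any size, every Nipponbare library was below every WT library for 127 members (against 30.8%), every *osbzip62* library for 130 (against 27.1%) and both for 124 (against 19.4%). In the edgeR comparison of Nipponbare with WT, 123 of the 135 lay on the lower side of the call and 0 on the higher side, where 6.85% of 19749 genes were lower and 8.41% higher. Their median log2 fold change was -2.80, against 0.04 over all genes tested.

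The mean Nipponbare level was below the mean *OsbZIP62V* level for 111 members, and the mean *osbzip62* level for 96. For 56 members every Nipponbare library was below every *OsbZIP62V* library, and for 7 every one was above. For *osbzip62* these counts were 38 and 18. No share over all genes was computed for any of these counts against *OsbZIP62V*, so they only describe the members. Low values at the edge of detection were most frequent in Nipponbare replicate 3, with 33 members under 1 CPM, against 14 in each of the other Nipponbare libraries, 6 to 10 in *osbzip62*, 2 to 7 in *OsbZIP62V* and 0 in WT.

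**Figure D2:**
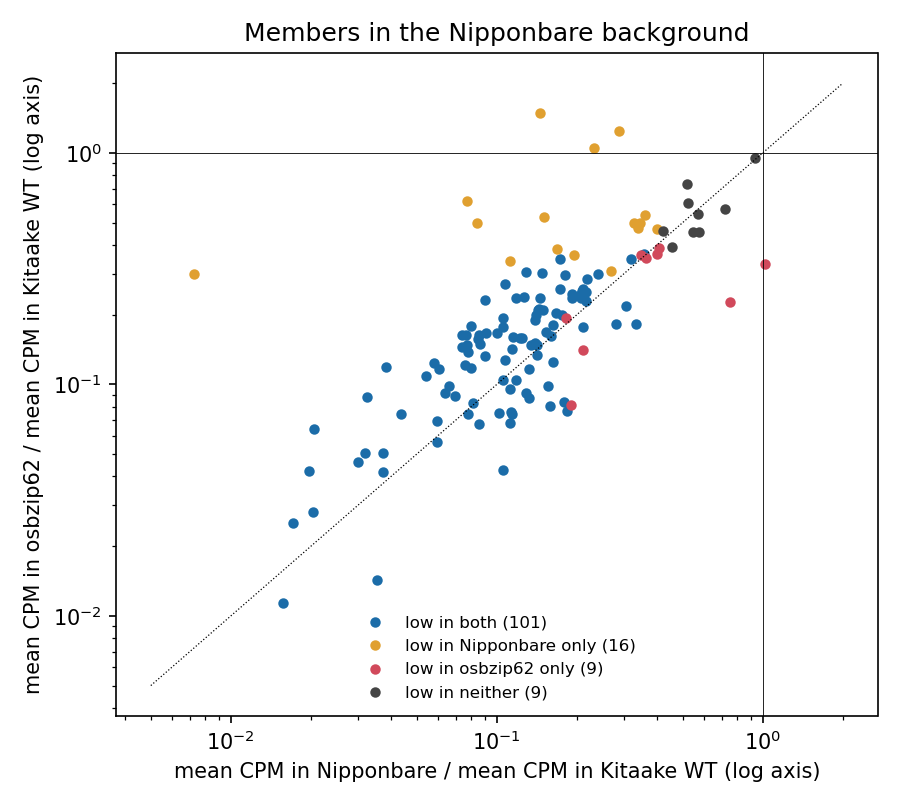
Mean CPM in Nipponbare (horizontal) and in *osbzip62* (vertical), each divided by the mean CPM in Kitaake WT, on log axes, for the 135 members; both axes share the WT libraries, the dotted line marks equal levels, and colours give whether every library of the group was at or below 0.5 times the lowest WT library. Most points (101) are low on both axes, 16 are low in Nipponbare only, 9 in *osbzip62* only and 9 in neither.

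The 12 annotated members with the widest gap between WT and *OsbZIP62V* began with a plastocyanin-like gene, LOC_Os08g37660, of the small copper proteins. It stood at 156, 281 and 226 CPM in WT, 10.3, 8.52 and 19.2 CPM in *OsbZIP62V*, 7.80, 4.86 and 0.988 CPM in Nipponbare and 19.9, 11 and 11.8 CPM in *osbzip62*. All 9 libraries outside WT were at 19.9 CPM or less. The carbonic anhydrase gene LOC_Os08g32750, whose enzyme family interconverts CO2 and bicarbonate, stood at 45, 30.5 and 31.2 CPM in WT and 4.64, 6.04 and 5.09 CPM in *OsbZIP62V*. It was nearly undetected in Nipponbare, at 0, 0.279 and 0.494 CPM, and was at 9.71, 4.78 and 17.5 CPM in *osbzip62*. Nipponbare and *osbzip62* did not overlap in this gene, and its ratio of WT to Nipponbare means, 138, was the highest of all members.

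WRKY24 (LOC_Os01g61080), of the plant-specific WRKY factors that bind W-box elements, stood at 268, 493 and 372 CPM in WT and 49.1, 60.1 and 73.9 CPM in *OsbZIP62V*. Its levels were 12.8, 18.2 and 5.76 CPM in Nipponbare and 37.8, 29.1 and 32.8 CPM in *osbzip62*, so the 4 groups formed separate ranges with Nipponbare the lowest. OsMYB2 (LOC_Os03g20090), a MYB transcription factor, stood at 23.7, 50.4 and 30 CPM in WT, 6.58, 6.37 and 6.97 CPM in *OsbZIP62V*, 4.26, 5.31 and 2.08 CPM in Nipponbare and 9.93, 12.6 and 12.9 CPM in *osbzip62*. For both factors Nipponbare was below *OsbZIP62V* without overlap, while *osbzip62* lay below *OsbZIP62V* for WRKY24 and above it for OsMYB2. The third transcription factor, the NAM-like LOC_Os01g23710, ran otherwise, at 37.4, 26.0 and 30.9 CPM in WT, 12.9, 12.8 and 9.99 CPM in *OsbZIP62V*, 17.8, 27.5 and 25.6 CPM in Nipponbare and 6.15, 8.51 and 6.82 CPM in *osbzip62*. Its Nipponbare range overlapped WT, and *osbzip62* was the lowest group.

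The heat shock list held 3 members, all high in WT and *osbzip62* and low in the other groups. LOC_Os08g39140, similar to heat shock protein 82 of the Hsp90 chaperones, stood at 61.2, 41.7 and 39.5 CPM in WT, 9.65, 16.3 and 13.6 CPM in *OsbZIP62V*, 14.9, 15.5 and 10.6 CPM in Nipponbare and 71.1, 37.7 and 68.2 CPM in *osbzip62*. LOC_Os03g16860, whose annotation (subunit 37c of the mediator) is projected from an Arabidopsis protein that is also known as a cytosolic Hsp70, stood at 301, 246 and 206 CPM in WT, 77.1, 77.4 and 42.7 CPM in *OsbZIP62V*, 47.2, 56.6 and 71.4 CPM in Nipponbare and 318, 147 and 321 CPM in *osbzip62*. In both genes the *osbzip62* and WT ranges overlapped. LOC_Os04g57880, a DnaJ protein of the family that hands substrates to Hsp70, stood at 13.9, 16.6 and 16.2 CPM in WT, 1.46, 5.82 and 2.83 CPM in *OsbZIP62V*, 1.54, 1.62 and 0.439 CPM in Nipponbare and 9.23, 8.51 and 11.2 CPM in *osbzip62*, where it stayed below WT.

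Enzymes included the 2 annotated members with the highest counts. LOC_Os04g47360, similar to prolyl endopeptidase, which cleaves peptides after proline, stood at 1362, 1207 and 1342 CPM in WT, 189, 425 and 136 CPM in *OsbZIP62V*, 347, 138 and 232 CPM in Nipponbare and 121, 97.7 and 80.6 CPM in *osbzip62*. The cytosolic ascorbate peroxidase 2 (LOC_Os07g49400), which reduces hydrogen peroxide with ascorbate, stood at 1110, 829 and 779 CPM in WT, 377, 378 and 234 CPM in *OsbZIP62V*, 150, 142 and 151 CPM in Nipponbare and 189, 128 and 175 CPM in *osbzip62*. Per length, ascorbate peroxidase 2 was the higher of these in WT, at 399 against 269 RPKM. The thioredoxin family gene LOC_Os02g56900, of the proteins that reduce disulfides, stood at 27.0, 35.8 and 28.0 CPM in WT, 11.8, 12.1 and 8.42 CPM in *OsbZIP62V*, 5.20, 4.53 and 3.46 CPM in Nipponbare and 44.7, 28.4 and 61.5 CPM in *osbzip62*. It was the 1 member for which all 3 *osbzip62* libraries reached the lowest WT library or more.

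**Figure D3:**
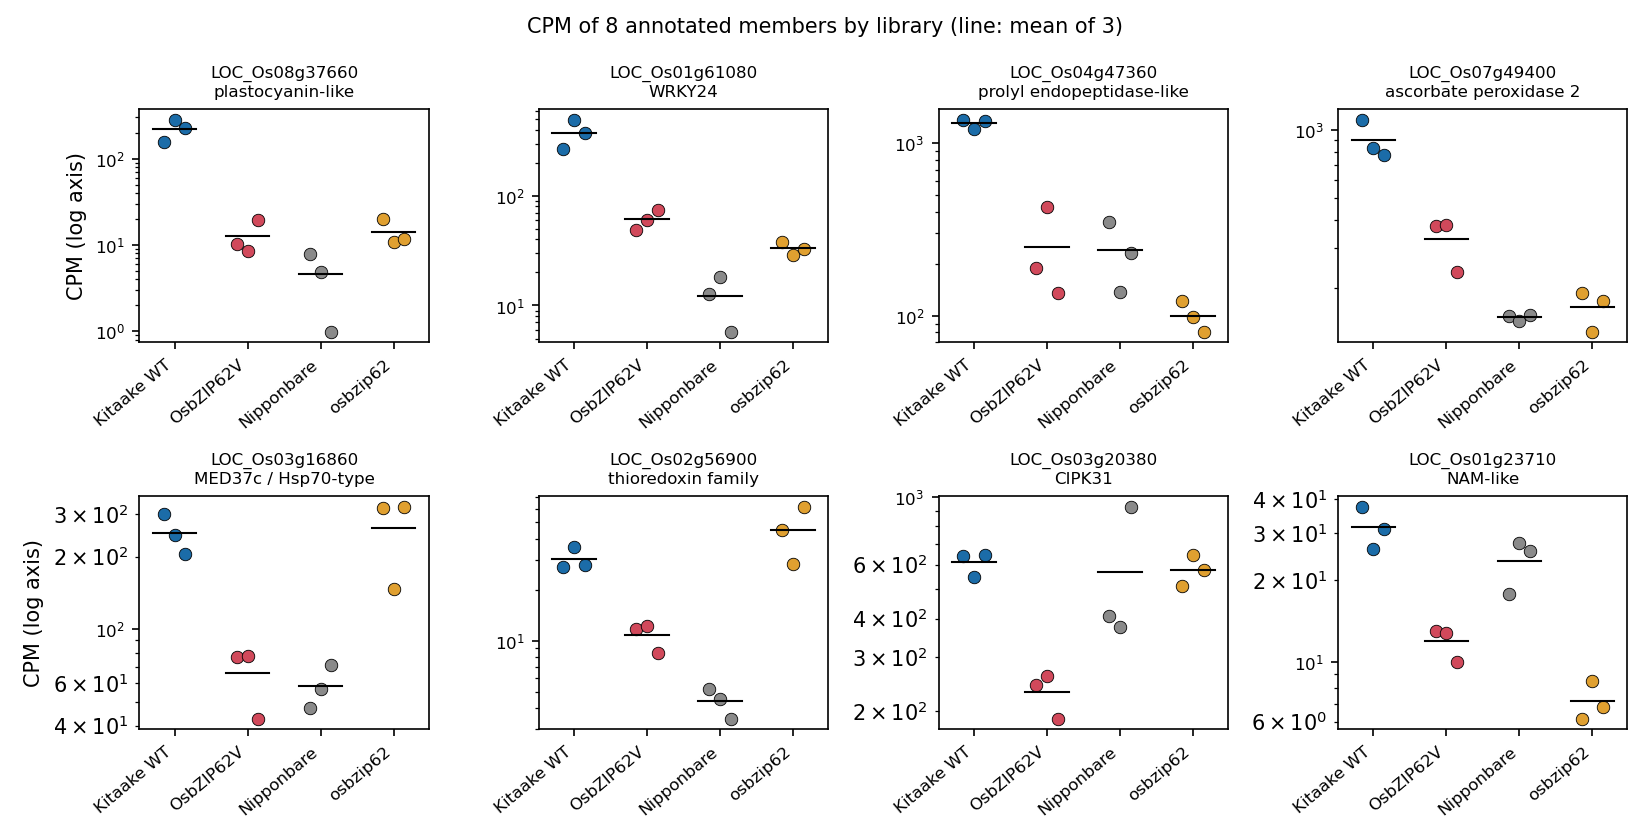
CPM (log axes, each with its own range) of 8 annotated members in the 12 libraries; points are libraries and lines the means of 3 per group. The thioredoxin gene runs from 3.46 to 5.20 CPM in Nipponbare and from 28.4 to 61.5 CPM in *osbzip62*, whereas ascorbate peroxidase 2 runs from 142 to 151 and from 128 to 189 CPM.

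The JAZ protein gene TIFY 10a (LOC_Os03g28940) stood at 665, 697 and 596 CPM in WT, 292, 282 and 226 CPM in *OsbZIP62V*, 242, 213 and 211 CPM in Nipponbare and 313, 262 and 351 CPM in *osbzip62*. All libraries outside WT thus lay between 211 and 351 CPM, with no overlap with WT. CIPK31 (LOC_Os03g20380), a kinase of the family activated by CBL calcium sensors, was unlike it, at 640, 547 and 645 CPM in WT, 243, 260 and 188 CPM in *OsbZIP62V*, 407, 375 and 926 CPM in Nipponbare and 512, 646 and 576 CPM in *osbzip62*. It was lowest in *OsbZIP62V*, and *osbzip62* overlapped WT. Nipponbare replicates 1 and 2 lay below every WT library and replicate 3 above every one, so its overlap with WT rested on replicate 3. The IQ calmodulin-binding gene LOC_Os01g38980 stood at 233, 233 and 188 CPM in WT, with 70.1 to 96.7 CPM in all 9 other libraries.

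Of the metal transport genes, LOC_Os06g37010, similar to zinc transporter 4, stood at 40.8, 29.8 and 30.1 CPM in WT, 10.8, 14.8 and 12.6 CPM in *OsbZIP62V*, 61.1, 23.3 and 18.2 CPM in Nipponbare and 11.1, 14.9 and 7.38 CPM in *osbzip62*. Its mean was the only one that was no lower in Nipponbare than in WT (ratio of WT to Nipponbare 0.981), and Nipponbare replicate 1 alone exceeded WT. The heavy metal domain gene LOC_Os04g39350 stood at 99.8, 116 and 113 CPM in WT, 30.1, 45.8 and 49.7 CPM in *OsbZIP62V*, 14.2, 13.3 and 7.74 CPM in Nipponbare and 26.5, 24.0 and 38.6 CPM in *osbzip62*. Here Nipponbare was the lowest group, with no overlap with any other.

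LOC_Os03g15890, similar to Transformer-2, a splicing regulator known from Drosophila, stood at 55.2, 38.6 and 44.0 CPM in WT, 17.5, 15.1 and 10.9 CPM in *OsbZIP62V*, 7.33, 6.37 and 6.97 CPM in Nipponbare and 28.8, 18.3 and 25.5 CPM in *osbzip62*. The 4 groups formed separate ranges in the order Nipponbare, *OsbZIP62V*, *osbzip62* and WT. The F-box gene LOC_Os01g59690, of the proteins that choose targets for ubiquitin ligases, stood at 163 to 169 CPM in WT, 75.4 to 79.1 CPM in *OsbZIP62V*, 50.5 to 63.1 CPM in Nipponbare and 72.8 to 92.1 CPM in *osbzip62*. The exo70 gene LOC_Os06g14450, a subunit of the exocyst that tethers secretory vesicles, ran from 9.65 to 14.1 CPM in WT, 3.29 to 4.08 CPM in *OsbZIP62V*, 1.10 to 2.63 CPM in Nipponbare and 3.15 to 4.40 CPM in *osbzip62*. Nipponbare was the lowest group for both.

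Of the other annotated members, the glycosyl transferase gene LOC_Os02g38140 and the dehydrogenase gene LOC_Os04g30420 stood at 29.6 to 38.8 CPM in WT and at 16.5 CPM or less elsewhere. The RNA recognition motif gene LOC_Os04g33810 ran from 8.10 to 9.18 CPM in WT and from 2.47 to 5.23 CPM elsewhere. The gene similar to senescence-associated protein 12, LOC_Os03g13840, stood at 113 to 130 CPM in WT and at 40.5 to 70.9 CPM in the other 9 libraries. All 4 had no overlap between WT and any other group, which the rule itself required for *OsbZIP62V*. For Nipponbare and *osbzip62* together this held for 124 of the 135 members, against 19.4% of the 11162 genes at 5 CPM or more in WT.

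The widest gaps of all belonged to 3 genes without an annotation here. OS05G0442700 stood at 48.5, 47.3 and 36.5 CPM in WT, 2.21, 2.14 and 2.14 CPM in *OsbZIP62V*, 0.650, 1.23 and 2.08 CPM in Nipponbare and 1.51, 1.92 and 2.65 CPM in *osbzip62*. OS02G0736900 stood at 33.6, 46.4 and 42.4 CPM in WT and OS01G0952900 at 57.1, 106 and 59.8 CPM, and both were at 4.69 CPM or less in every other library. In all 3 the *osbzip62* and Nipponbare libraries overlapped.

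By position, 15 of the 135 members (11.1%) were next to another member in the order of the gene identifiers, in 8 pairs, against 13 of 191 (6.81%) for the genes raised under the mirrored rule. No share over all genes was computed for this, so the counts only describe the 2 sets. A run of 3 was formed by OS09G0522000, OS09G0522100 and OS09G0522200. Their WT levels were 64.2 to 110 CPM, 6.94 to 10.1 CPM and 163 to 242 CPM, and their highest levels outside WT were 5.34, 1.21 and 34.2 CPM. Neighbours can be near-identical copies that share reads, which these files do not resolve. The heat shock protein 82 gene (OS08G0500700) lay next to member OS08G0500800, which stood at 5.65 to 6.72 CPM in WT and at 2.53 CPM or less elsewhere, so that only the former was high in *osbzip62*. Members lay on all 12 chromosomes, from 2 on chromosome 11 (0.429% of its genes at 5 CPM or more in WT) to 28 on chromosome 1 (1.69%).

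The comparison of *osbzip62* with Nipponbare used libraries that had no part in the choice of the genes. It asks whether the mutant differs from its wild type in the genes that were low under overexpression. The *OsbZIP62* transcript was itself at 0.782 CPM or less in the Nipponbare libraries, which limits what its loss can show. The edgeR quasi-likelihood test, with Benjamini-Hochberg adjustment over 20398 genes and a call at an adjusted p under 0.05 with a log2 fold change over 1, could be applied to 133 members. The other 2 were too low: OS01G0298400 stood at 0 to 0.768 CPM and OS09G0522100 at 0 to 0.414 CPM in these 6 libraries. Of the 133, 2 rose (against 0.377% of all genes tested) and 0 fell (against 0.0441%). At an unadjusted p under 0.05, 26 were higher and 6 lower, against 8.67% and 8.19% of all genes. DESeq2 gave an adjusted p for 134 members and called 10 of them higher and 3 lower, against 2.4% and 1.62% of 21948 genes.

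Both genes that rose are described above. The change in log2 units was 3.22 for the thioredoxin gene LOC_Os02g56900 (SE 0.33, edgeR adjusted p = 0.0209) and 1.65 for the Transformer-2-like gene LOC_Os03g15890 (SE 0.23, edgeR adjusted p = 0.0499). Both were higher in all 3 *osbzip62* libraries than in any Nipponbare library, and both were on the study's list for this mutant. The count of 2 changed when 1 library was left out. It was 0 without Nipponbare replicate 2, *osbzip62* replicate 1 or *osbzip62* replicate 3. Without Nipponbare replicate 1 it was 1, and without Nipponbare replicate 3 it was 7. The log2 fold changes moved less in these fits, from 2.89 to 3.49 for the thioredoxin gene. For the Transformer-2-like gene they ran from 1.52 to 1.85.

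The annotated members that followed in order of p did not pass this test. By edgeR, the log2 fold change was -1.92 for the NAM-like LOC_Os01g23710 (SE 0.28, adjusted p = 0.0503), 1.97 for heat shock protein 82 (SE 0.29, adjusted p = 0.0503), 2.89 for the DnaJ gene LOC_Os04g57880 (SE 0.42, adjusted p = 0.0504), 5.12 for the carbonic anhydrase gene LOC_Os08g32750 (SE 0.95, adjusted p = 0.0766) and 1.98 for the Hsp70-type LOC_Os03g16860 (SE 0.40, adjusted p = 0.0824). These 5 lay at the threshold: of 11 alternative fits, the NAM-like gene and heat shock protein 82 passed in 6, the DnaJ gene in 5, the Hsp70-type gene in 4 and the carbonic anhydrase gene in 3, among them DESeq2 and the fit of all 12 libraries for each. With DESeq2 their adjusted p ran from 2.05e-08 (DnaJ) to 6.28e-05 (Hsp70-type), at a fold change of the same direction. Next by edgeR came OsMYB2 with 1.47 (SE 0.31, adjusted p = 0.0928), the heavy metal domain gene LOC_Os04g39350 with 1.21 (SE 0.26, adjusted p = 0.0971), the prolyl endopeptidase gene LOC_Os04g47360 with -1.40 (SE 0.32, adjusted p = 0.103), the glycosyl transferase gene LOC_Os02g38140 with 0.85 (SE 0.20, adjusted p = 0.110), the zinc transporter gene LOC_Os06g37010 with -1.72 (SE 0.41, adjusted p = 0.115) and WRKY24 with 1.31 (SE 0.35, adjusted p = 0.140). Values closer to 0 were found for ascorbate peroxidase 2 (-0.01, SE 0.22, adjusted p = 0.983), TIFY 10a (0.32, SE 0.19, adjusted p = 0.427) and CIPK31 (-0.21, SE 0.44, adjusted p = 0.840).

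Over all 133 members the median log2 fold change was 0.19, against -0.04 over all genes tested, 85 were above 0 (63.9%, against 46.4%) and 48 below (36.1%, against 53.6%). Of the 110 tested members without a locus, which include none that could be placed on the mutant list, 70 were above 0 and 40 below. At an unadjusted edgeR p under 0.05, 13 were higher and 3 lower, against 8.67% and 8.19% of all genes tested, listed genes included. All 14 members on that list had such a p. Every *osbzip62* library was above every Nipponbare library for 39 members (29.3%, against 20.7%) and below for 4 (3.01%, against 4.45%). Even so, the members' mean level in *osbzip62* remained below WT for all but 3, with a median WT to *osbzip62* ratio of 5.68, and 7.21 for Nipponbare. Those 3 were the thioredoxin gene, heat shock protein 82 and the Hsp70-type LOC_Os03g16860.

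**Figure D4:**
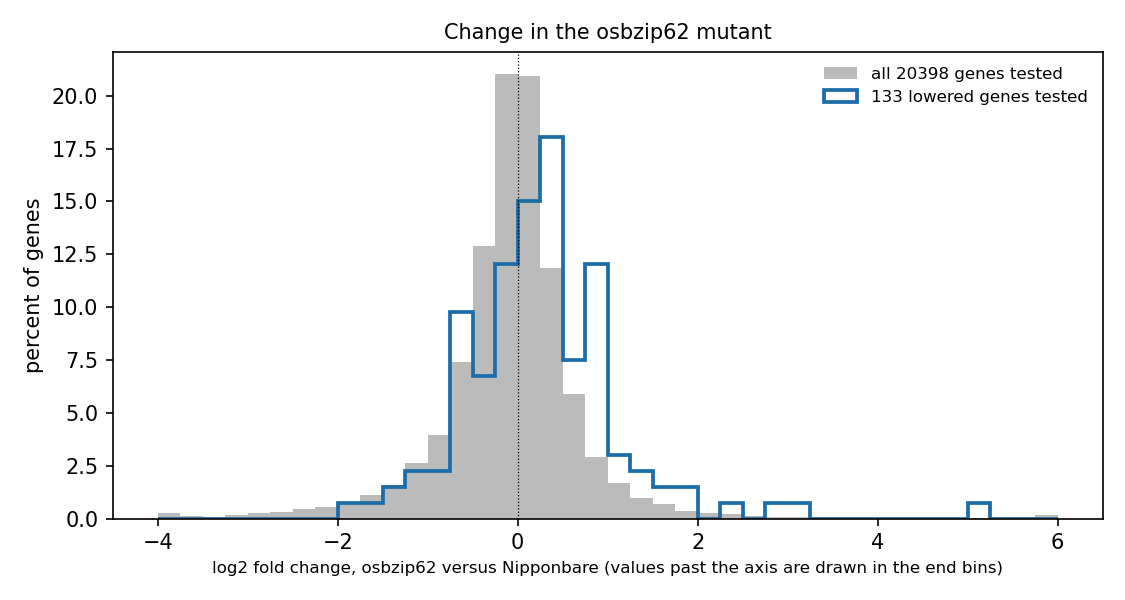
Distribution of the log2 fold change of *osbzip62* versus Nipponbare (horizontal, bins of equal width) as the percent of genes (vertical), for all 20398 genes tested (grey) and the 133 lowered genes tested (outline). The outline is centred at a median of 0.19 and the grey bars at -0.04, and 3 of the lowered genes to the right of 2.5 are the DnaJ (2.89), thioredoxin (3.22) and carbonic anhydrase (5.12) genes.

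Further genes of the same pathways were counted from lists fixed by locus, as far as a locus could be placed. As every placed gene came from the study's lists of changed genes, these counts are no independent evidence of a direction. Over all genes tested in *osbzip62* against Nipponbare, 8.67% were higher and 8.19% lower at an unadjusted edgeR p under 0.05. Where the adjusted p alone had to be under 0.05, whatever the fold, 0.377% were higher and 0.0441% lower by edgeR, and 3.26% higher and 2.82% lower by DESeq2. Of 22 heat shock loci 8 were placed, 3 of them members. By edgeR 5 were higher and 1 lower at an unadjusted p under 0.05, and 1 passed the adjusted threshold (HSFA2c, a heat shock factor and no member, log2 fold change 2.71, SE 0.35, adjusted p = 0.0394). DESeq2 passed 5, all higher, and the median log2 fold change of the list was 1.75. Of 21 WRKY loci 6 were placed, 1 of them a member, and all 6 were higher at an unadjusted edgeR p under 0.05, with 0 past the adjusted threshold, 5 higher by DESeq2 and a median of 1.11. Of 23 jasmonate loci 5 were placed, 1 of them a member, with 2 higher and 0 lower at an unadjusted edgeR p under 0.05, 0 past the adjusted threshold, 2 higher by DESeq2 and a median of 0.54. Of 15 calcium loci 8 were placed, no member among them, with 0 at an unadjusted edgeR p under 0.05, 0 past the adjusted threshold, 0 by DESeq2 and a median of 0.03. The median over all genes tested was -0.04.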

How the data were processed

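RNA was measured in 12 rice libraries, all labelled as leaf. The authors made TruSeq libraries, a kit that does not mark strand, so overlapping or antisense genes cannot be separated. They aligned reads with HISAT2 2.1.0; the submitters' processing notes list, beside it, HTSeq 0.6.1p2 and Bowtie2 2.2.3, with IRGSP-1.0 as the build. The deposited counts are whole reads per gene with no normalization. The deposited RPKM are these counts per gene length and library total, checked on 10879 genes, and served for levels per length. Columns of fold changes in the study's lists were used only to pair identifiers with loci, within a relative difference of 6e-06: 1992 of 1998 entries of the *OsbZIP62V* list, whose copy ends within the lower genes, and 1122 of 1143 of the *osbzip62* list.

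CPM are counts over the library's total. Pairs of groups were fitted with edgeR 4.0.16 (TMM, default filter on low counts, quasi-likelihood test) in R 4.3.3, with DESeq2 1.42.0 as alternative, and limma 3.58.1 loaded; tables and figures used Python 3.11.15, pandas 2.3.3, numpy 2.4.6, scipy 1.17.1 and matplotlib 3.10.9. Standard errors were derived from F statistics and fold changes. Only the edgeR fit of *osbzip62* versus Nipponbare was run on simulated counts, with changes larger than most of those seen in the members. Its outcome is not reported here and says nothing about smaller changes. Genes were named by these rules: the 12 annotated and 3 other members with the widest gap, those next to the limit, those called in *osbzip62*, the annotated members with the 5 highest and 5 lowest Nipponbare to WT ratios, list members and the 2 most abundant; the remaining annotated ones, the neighbouring genes and those near the threshold were added after their values were seen. The members and lists were chosen with earlier results of these data known, and the split by Nipponbare and *osbzip62* level after seeing the values. Replicates differed beyond counting noise (chi-square per degree of freedom 8.86 or more). Alternatives were other limits of the rule, other scalings and filters, a fit of all 12 libraries, a replicate block and leaving out each library. Promoter motifs and sequences were not analysed here.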

Additional observations from a re-analysis of the deposited data

How the results depend on the processing

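The number of members was 308 with a 1.5-fold limit and 46 with a 3-fold limit, between 113 and 173 with a minimum of 10 or 1 CPM, and 145 to 185 when 1 library was left out. With TMM-scaled CPM it was 155, of which 129 were shared. The count low in every Nipponbare and *osbzip62* library, 101, lay between 99 and 106 under alternatives chosen after seeing the data, and the median log2 ratio of Nipponbare to WT, -2.68, between -2.93 and -2.53. In *osbzip62* versus Nipponbare, the members called higher (2) numbered 10 with DESeq2, 9 in the fit of all 12 libraries, 5 with library totals only, 4 with no filter and 0 to 7 with 1 library left out. Those called lower (0) numbered 3, 2, 1 and 1 in the same order, and 0 to 1. The median log2 fold change, 0.19, was 0.35 with library totals and 0.14 to 0.31 with 1 library left out. The cause was not tested. The adjusted p ranged from 7.9e-17 to 0.109 for LOC_Os02g56900 and from 2.63e-06 to 0.258 for LOC_Os03g15890 over the 11 alternatives, with the call lost in 4 and in 6 of them. For the 5 members at the threshold it ranged from 2.05e-08 to 0.351. No value changed direction. Whether the replicate numbers pair the samples was not settled. The correlations of deviations between like numbers were -0.28, 0.18 and 0.39, and unlike numbers were not compared. With a replicate block 0 members were called higher and 0 lower, with a median of 0.31. With 3 libraries a group, exact permutation of 1 gene cannot give p below 0.1, and members under 1 CPM in Nipponbare have imprecise ratios.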
